A study of Mus musculus with 16 samples.

Results

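The BCL2 family genes that set the balance between survival and mitochondrial apoptosis were followed across the immune cells of irradiated and untreated mouse tumors. The members were 9 genes of the 31053 listed in the matrices, chosen by name with earlier results of these data known. The anti-apoptotic ones were Bcl2, Bcl2l1 (which encodes BCL-XL), Mcl1 and the A1 paralogs Bcl2a1a, Bcl2a1b and Bcl2a1d. The death-promoting ones were the BH3-only genes Bcl2l11 (BIM) and Bid, and the effector Bak1. CD45+ cells were enriched with magnetic beads and sorted as live cells from tumors grown under the skin of the right flank of C57BL/6J mice, which the study's methods give as 6 to 8 weeks old. The 4 groups were untreated MC38 (MC38 NT), irradiated MC38 (MC38 RT), untreated Panc02-SIY (Panc02-SIY NT) and irradiated Panc02-SIY (Panc02-SIY RT), each with 4 libraries. The MC38 line comes from a colorectal carcinoma and is called radioimmunogenic by the study. The Panc02-SIY line, from a pancreatic adenocarcinoma, was made to express the model antigen SIY and is called poorly radioimmunogenic. Irradiated tumors received 1 CT-guided dose of 12 Gy and were taken 24 h later. Each tumor is 1 cell line, so the line, its antigen and its tumor type cannot be told apart, and the label-stated 4 animals per group differ from the 3 per group of the study's text.

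The BCL2 family decides whether the outer mitochondrial membrane is opened. BAX and BAK form the pores that release cytochrome c, the anti-apoptotic proteins BCL2, BCL-XL, MCL1 and A1 hold them and the BH3-only proteins back, and BH3-only proteins such as BIM, BID, PUMA and NOXA tip the balance toward death. Immune lineages lean on different guardians: mature lymphocytes are known for BCL2, neutrophils for the short-lived MCL1 and A1, and A1 is a classical NF-kB-induced gene, whereas DNA damage acts on the family through the p53 targets Bax, Bbc3 (PUMA) and Pmaip1 (NOXA).

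The A1 genes are shown first by sequence because the mouse carries near-identical copies of them on chromosome 9, so their separate counts rest on few differences. The following stretches run from 250 bases before to 50 bases after each annotated start in the gene's own direction, in GRCm38.p6 with RefSeq annotation, from chr9:88956670-88956969 (plus strand) for Bcl2a1a, chr9:89199023-89199322 (plus strand) for Bcl2a1b and chr9:88731801-88732100 (minus strand) for Bcl2a1d. Capitals mark the motif TGANTCA, with any base at N and read here as TGAATCA, and the purine-rich motif GAGGAAG.
Bcl2a1a: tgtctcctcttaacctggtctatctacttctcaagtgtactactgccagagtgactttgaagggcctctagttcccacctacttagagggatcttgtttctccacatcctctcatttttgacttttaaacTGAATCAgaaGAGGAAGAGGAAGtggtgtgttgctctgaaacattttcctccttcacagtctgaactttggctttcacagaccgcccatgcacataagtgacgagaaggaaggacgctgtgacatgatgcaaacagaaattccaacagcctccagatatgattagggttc
Bcl2a1b: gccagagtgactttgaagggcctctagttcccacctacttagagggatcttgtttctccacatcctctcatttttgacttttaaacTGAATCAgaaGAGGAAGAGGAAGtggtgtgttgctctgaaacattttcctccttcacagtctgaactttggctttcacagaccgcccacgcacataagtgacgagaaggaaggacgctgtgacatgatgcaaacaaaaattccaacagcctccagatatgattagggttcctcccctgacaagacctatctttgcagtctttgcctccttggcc
Bcl2a1d: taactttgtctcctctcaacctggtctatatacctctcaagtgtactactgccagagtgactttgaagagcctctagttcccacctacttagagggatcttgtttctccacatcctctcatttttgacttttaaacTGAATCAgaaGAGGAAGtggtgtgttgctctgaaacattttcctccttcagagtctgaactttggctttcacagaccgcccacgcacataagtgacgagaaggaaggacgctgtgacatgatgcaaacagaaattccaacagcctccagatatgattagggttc
Over their aligned columns, the Bcl2a1a and Bcl2a1b stretches were 99.2% identical (254 of 256 columns), Bcl2a1a and Bcl2a1d 96.0% (288 of 300) and Bcl2a1b and Bcl2a1d 96.5% (247 of 256). Both motifs, searched on both strands, stood in all 3 A1 stretches. As these stretches are near-identical copies, the shared motifs count as 1 observation and not 3. Bcl2a1a and Bcl2a1b held the purine-rich motif as 2 copies that share 1 base, and Bcl2a1d held 1 copy. Of 32851 mouse promoters of the same length, 1.01% held both marked motifs, 7.81% TGANTCA and 13.6% the purine-rich one, which also stood once in the promoters of Bcl2 and Bak1. All 9 members matched the RefSeq table. Within the last 500 bases of the A1 transcripts, 66.7% of the 50-base windows of Bcl2a1a, 66.7% of those of Bcl2a1b and 87.8% of those of Bcl2a1d were shared with another A1 gene. Each A1 count is therefore uncertain between paralogs. The sum of the 3 genes is given beside them in most comparisons between groups, while levels across lineages are given per gene only.

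In GRCm38 (GENCODE gene bounds), the A1 genes are Bcl2a1a (ENSMUSG00000102037) at chr9:88956900-88962419, Bcl2a1b (ENSMUSG00000089929) at chr9:89199209-89207827 and Bcl2a1d (ENSMUSG00000099974) at chr9:88723285-88731914. The other members are Bcl2 (ENSMUSG00000057329) at chr1:106538178-106714274, Bcl2l1 (ENSMUSG00000007659) at chr2:152780668-152831728, Mcl1 (ENSMUSG00000038612) at chr3:95658788-95663176, Bcl2l11 (ENSMUSG00000027381) at chr2:128126038-128162547, Bid (ENSMUSG00000004446) at chr6:120891930-120916853 and Bak1 (ENSMUSG00000057789) at chr17:27019810-27029009. Their unique molecular identifiers (UMIs, each a counted RNA molecule) over the kept barcodes ranged from 3236 for Bid to 96277 for Mcl1 of 174992790 in all, so the values of Bid are the least precise.

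The 16 libraries listed 28678 cell barcodes. In the MC38 libraries, 9843 listed barcodes were only 2632 distinct sequences, of which 1239 were in more than 1 library and 769 in all 8, whereas 187 of 18136 distinct Panc02-SIY barcodes were shared. Each barcode was therefore kept only in the library of its tumor where it had the most UMIs, which left 20768 barcodes, and results are also given with every barcode kept. The libraries held 1385711 to 8500889 kept UMIs in MC38 and 5275195 to 43708746 in Panc02-SIY, and irradiated MC38 replicate 1, the smallest, kept 42.8% of its UMIs in 147 barcodes. Barcodes were assigned to lineages by marker genes that include no member, which placed 15196 barcodes and left 26.3% ungated. Every lineage had markers of its own and none listed for another among its 10 leading genes. The gate read the same markers, so this does not test purity. The immunoglobulin gene Igha, which is not a listed marker, was among the 10 leading genes of monocyte-like barcodes. The lineages are called T cell-like, NK cell-like, B cell-like, neutrophil-like, monocyte-like, macrophage-like and cDC-like (conventional dendritic cells), and levels are given as CPM, the gene's UMI count scaled to 1000000 UMIs of that lineage in that library. MC38 libraries gave 79 untreated and 115 irradiated T cell-like, 46 and 59 NK cell-like, 148 and 211 monocyte-like and 527 and 391 macrophage-like barcodes. Panc02-SIY libraries gave 3770 and 2930, 605 and 1134, 120 and 468, and 1556 and 932. Libraries with under 10 barcodes of a lineage were left out of it, which removed irradiated MC38 replicate 2 from the T cells, and untreated replicate 3 and irradiated replicate 1 of MC38 from the NK cells. The p-values measure the spread between these libraries, which may in part be technical.

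Each member had its own order of levels across the 7 lineages, with Bcl2 highest in lymphoid and Mcl1 in myeloid lineages. Neighboring lineages in each order were compared within libraries by an exact two-sided paired permutation test on log2(CPM + 10), and 24 of 54 neighboring pairs differed at an adjusted p below 0.1. Only Panc02-SIY libraries held enough neutrophils (8 libraries) and B cells (6 libraries), and 6 libraries allow no p below 0.03125. Levels are compared between lineages within a gene, not between genes.

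**Figure D1:**
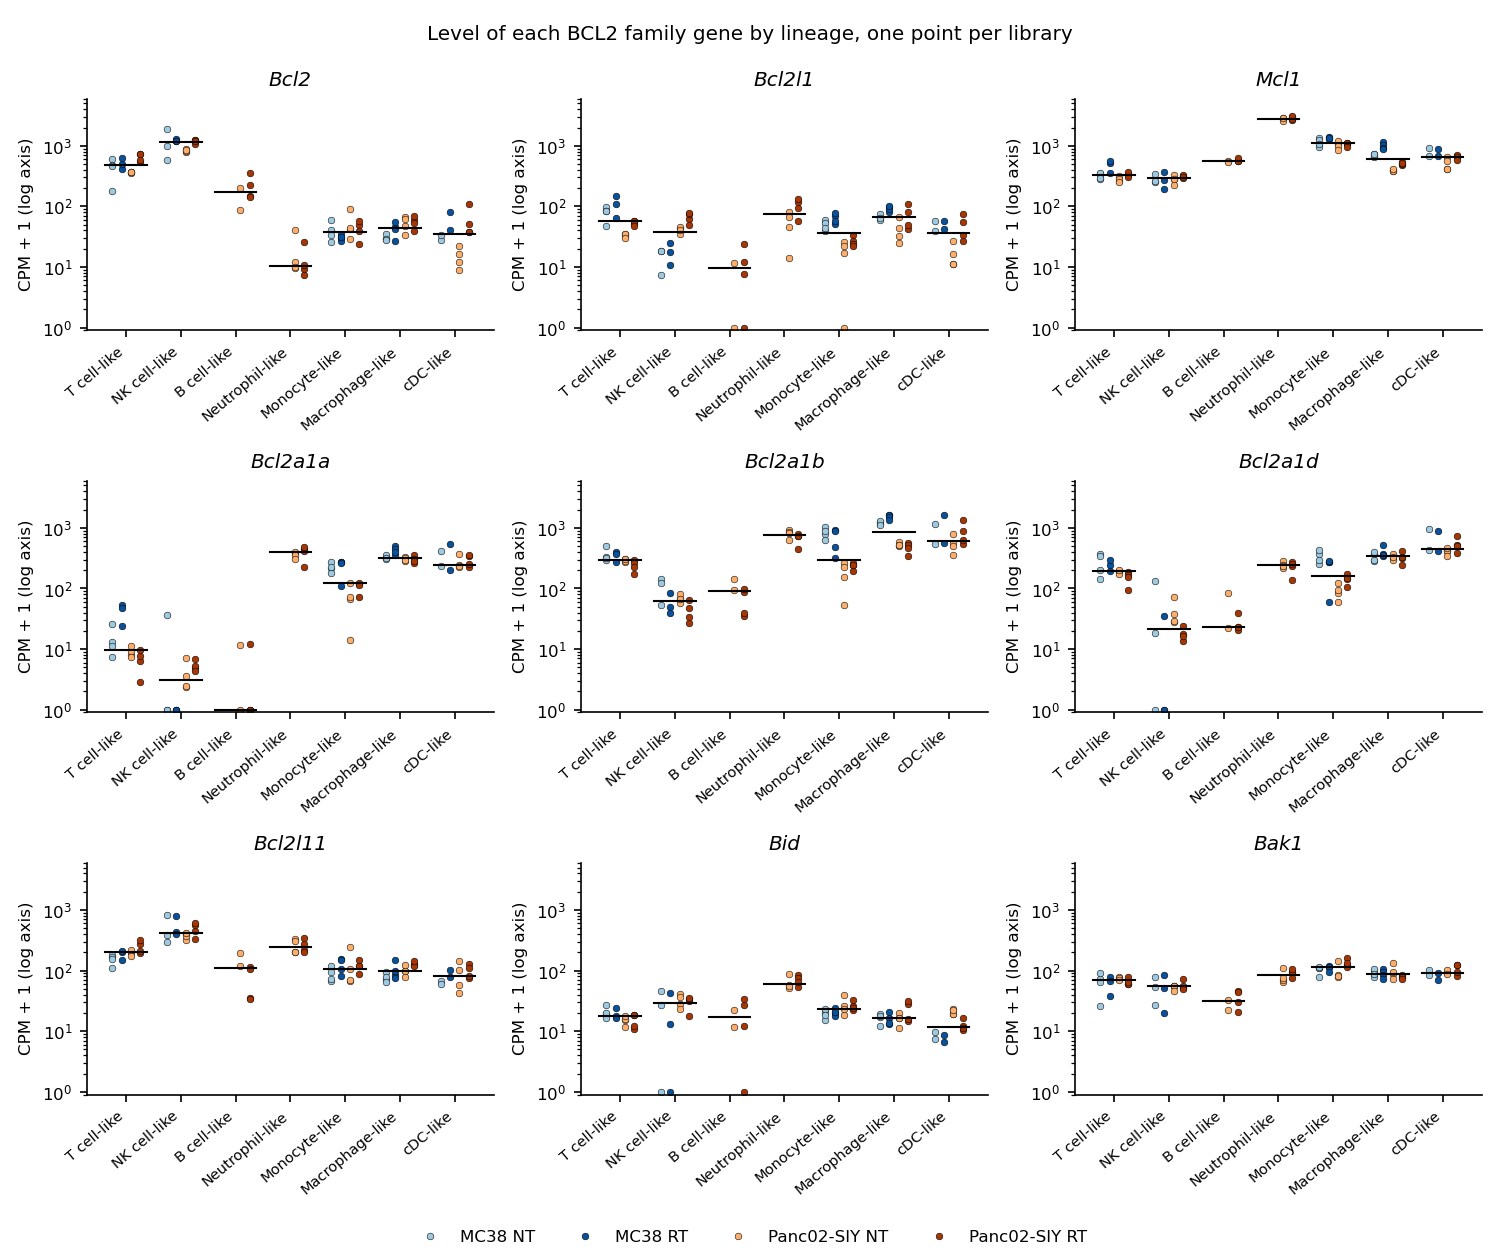
The level of each member (CPM + 1, log axis) in the 7 lineages, with 1 point per library colored by group and a black line at the median over libraries. Bcl2 was highest in NK cell-like barcodes (1088 CPM on average) and Mcl1 in neutrophil-like barcodes (2801 CPM).

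Bcl2, the founding anti-apoptotic member and a guardian of resting lymphocytes, was highest in NK cell-like barcodes (1088 ± 317 CPM, SD, n = 14 libraries). T cell-like barcodes followed (487 ± 151 CPM, n = 15), lower in 13 of 13 shared libraries by 1.13 on the log2 scale (adjusted p = 0.0033, exact permutation test). B cell-like barcodes held 191 ± 91.1 CPM (n = 6), below T cells and above macrophages in 6 of 6 libraries (adjusted p = 0.0734 for both, exact permutation test). The myeloid lineages were low and their neighbors did not differ beyond the spread, with 44.3 ± 14.9 CPM in macrophages (n = 16), 40.3 ± 17.2 in monocytes (n = 16), 39.0 ± 29.8 in cDCs (n = 12) and 14.8 ± 11.6 in neutrophils (n = 8). In untreated Panc02-SIY, 92.4% of NK cell-like barcodes (median 5317 UMIs) held a Bcl2 UMI against 2.94% of neutrophil-like barcodes (median 2561.5 UMIs). After thinning to 2000 UMIs, which left out 29 of 605 NK cell-like and 110 of 578 neutrophil-like barcodes as shallower, the shares were 75.1% and 2.03%, the same order at equal depth.

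Mcl1, a labile guardian on which neutrophils are known to depend, was highest in neutrophil-like barcodes (2801 ± 172 CPM, n = 8). Monocytes followed (1141 ± 167 CPM, n = 16), lower in 8 of 8 shared libraries by 1.43 on the log2 scale (adjusted p = 0.0384, exact permutation test). The cDCs held 645 ± 149 CPM, below monocytes in 12 of 12 libraries (adjusted p = 0.0044, exact permutation test), and macrophages 649 ± 242 CPM, below cDCs in 9 of 12 libraries by 0.21 (adjusted p = 0.078, exact permutation test). B cells (573 ± 35.7 CPM) stood above macrophages within all 6 shared libraries although their mean over libraries was lower, and above T cells (344 ± 86.8 CPM). T cells and NK cells (287 ± 45.7 CPM) did not differ beyond the spread (adjusted p = 0.213, exact permutation test). A Mcl1 UMI was found in 97.9% of untreated and 96.8% of irradiated neutrophil-like barcodes of Panc02-SIY.

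Bcl2l1, whose product BCL-XL guards many cell types, was spread more evenly. Neutrophils (75.1 ± 38.4 CPM), macrophages (66.7 ± 25 CPM) and T cells (64.5 ± 33.5 CPM) did not differ stepwise. Monocytes (38.1 ± 21.1 CPM) were below T cells in 14 of 15 libraries by 0.70 on the log2 scale (adjusted p = 0.0033, exact permutation test), followed in mean level by cDCs and NK cells (36.8 CPM each) and by B cells at 8.50 ± 8.45 CPM. Within shared libraries, monocytes minus cDCs were at -0.20 and cDCs minus NK cells at -0.23 on the log2 scale, and neither step passed the test. The order of NK cells and monocytes differed between the tumors (values below).

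The A1 paralogs, which encode a guardian of activated leukocytes, are described gene by gene. Their counts are uncertain between paralogs, and a difference in lineage between paralogs was not tested. Bcl2a1a stood at 377 ± 82.8 CPM in neutrophils, 339 ± 62.7 in macrophages, 303 ± 102 in cDCs and 157 ± 86.0 in monocytes. Its level in T cells was 15.5 ± 15.5 CPM, below monocytes in 15 of 15 libraries by 2.67 on the log2 scale, and it was listed at 0 UMIs in 5 of 14 NK cell and 4 of 6 B cell libraries. Bcl2a1b was not confined to myeloid cells: macrophages held 936 ± 474 CPM, cDCs 794 ± 398, neutrophils 739 ± 144, monocytes 473 ± 326 and T cells 305 ± 75.3, against 82.2 ± 40.2 in B cells and 66.3 ± 32.4 in NK cells. Within the 8 libraries that held both, neutrophils were above macrophages for Bcl2a1b in 7 (adjusted p = 0.0563, exact permutation test). Bcl2a1d was highest in cDCs (538 ± 201 CPM), then macrophages (345 ± 64.9), neutrophils (235 ± 46.0) and T cells (209.8 ± 74.6), each step passing the test, with monocytes at 197 ± 114 CPM.

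Among the death-promoting members, Bcl2l11, which encodes the BH3-only protein BIM that culls lymphocytes, had its peak in NK cells, as Bcl2 did (469 ± 164 CPM). Neutrophils (259 ± 60.9 CPM) were lower than NK cells in 6 of 8 libraries (adjusted p = 0.0734, exact permutation test), and T cells (198 ± 51.8 CPM) stood above monocytes (113 ± 46.8 CPM) in 14 of 15. Bid, a BH3-only protein cut by caspase-8, was highest in neutrophils (65.2 ± 14.2 CPM), above NK cells (26.1 ± 14.4 CPM) in 8 of 8 libraries (adjusted p = 0.0384, exact permutation test). Bak1, the pore-forming effector, ran from 111 ± 24.3 CPM in monocytes to 65.5 ± 16.5 in T cells, 53.4 ± 17.3 in NK cells and 31.9 ± 10.7 in B cells, with NK cells below T cells in 11 of 13 libraries and B cells below NK cells in 6 of 6.

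Irradiation of MC38 was tested first in all CD45+ barcodes of a library together, where fewer cells of a type and less RNA per cell cannot be told apart. Bcl2, Bcl2l1, Mcl1 and Bcl2l11 rose, 4 of 9 members against 7.24% of the 12447 genes tested that were higher (edgeR quasi-likelihood test, adjusted p below 0.1 and a fold above 1.3). The members' median log2 fold change was 0.33 and that of all genes 0.04. Mcl1 stood at 660.3, 837, 782 and 787 CPM in untreated and 1064, 1053, 995 and 975 CPM in irradiated replicates 1 to 4. All irradiated libraries were above all untreated ones, and the log2 fold change was 0.51 (SE 0.10, adjusted p = 0.0049). Bcl2 was at 79.3, 101, 52.9 and 65.2 CPM untreated and at 159, 103, 124 and 105 CPM irradiated (log2 fold change 0.81, adjusted p = 0.0088). Bcl2l11 rose from 93.1 ± 12.4 to 134 ± 30.4 CPM (0.61, adjusted p = 0.0126) and Bcl2l1 from 59.8 ± 1.87 to 78.7 ± 8.10 CPM (0.50, adjusted p = 0.0054). Groups did not overlap for 5 of 9 members, Bcl2a1b being the fifth, against 20% of all genes. The sum of the A1 genes was not called (0.26, edgeR adjusted p = 0.130). With every barcode kept, Bcl2 (0.59), Bcl2l1 (0.44) and Bcl2l11 (0.39) still rose, while Mcl1 (0.37, adjusted p = 0.0336) was under the fold limit. The call of Mcl1 also ended with only barcodes holding at least 60% of their UMIs in the richest library (edgeR adjusted p = 0.206). That of Bcl2l1 ended without the 5% of barcodes with the most UMIs. T cell-like barcodes, a Bcl2-rich lineage, were a median of 5.89% of barcodes in untreated and 9.20% in irradiated MC38 libraries, and macrophage-like barcodes 37.3% and 28.8%. The part of these shares in the result was not tested.

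Within the MC38 lineages with enough barcodes to test (T cells, NK cells, monocytes and macrophages), the calls were all in macrophages. The cDCs, neutrophils and B cells of MC38 were not tested. Of 35 member-by-lineage tests, 5 were called against 4.1% of all genes over these lineages, namely Bcl2, Bcl2l1, Mcl1, Bcl2a1a and Bcl2a1b in macrophage-like barcodes, where 6.79% of 9648 genes were higher. The median log2 fold change of the 9 members there was 0.45 against 0.01 for all genes. The 5 are the anti-apoptotic genes apart from Bcl2a1d, and no death-promoting member was called. Most of the members are anti-apoptotic, and the death-promoting genes Bax, Bbc3 and Pmaip1, outside the member list, rose in these macrophages (values below).

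Mcl1 in MC38 macrophages was 648, 738, 673 and 721 CPM untreated and 1146, 1038, 903 and 899 CPM irradiated. Every irradiated library was above every untreated one, and the log2 fold change was 0.63 (SE 0.09, adjusted p = 1.02e-04). Bcl2a1a was 323, 349, 304 and 312 CPM untreated and 499, 444, 349 and 406 CPM irradiated. The groups were barely apart, with a log2 fold change of 0.50 (SE 0.11, adjusted p = 0.0039). Bcl2a1b was 1163, 1267, 1318 and 1103 CPM untreated and 1626, 1645, 1508 and 1349 CPM irradiated, again without overlap (0.45, SE 0.12, adjusted p = 0.0132). Bcl2l1 was 63.6, 73.7, 59.2 and 63.1 CPM untreated and 96.1, 79.1, 89.1 and 100.3 CPM irradiated (0.61, SE 0.20, adjusted p = 0.0636). Bcl2 was 28.5, 33.6, 27.6 and 26.6 CPM untreated and 25.7, 44.4, 54.7 and 42.0 CPM irradiated. Irradiated replicate 1 lay below every untreated library, and the other irradiated libraries lay above them (0.72, SE 0.21, adjusted p = 0.0255). Groups did not overlap for 4 of 9 members (Bcl2l1, Mcl1, Bcl2a1a and Bcl2a1b) against 21.8% of all genes. The sum of the A1 genes rose by a log2 fold change of 0.44 (SE 0.11, adjusted p = 0.0104).

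**Figure D2:**
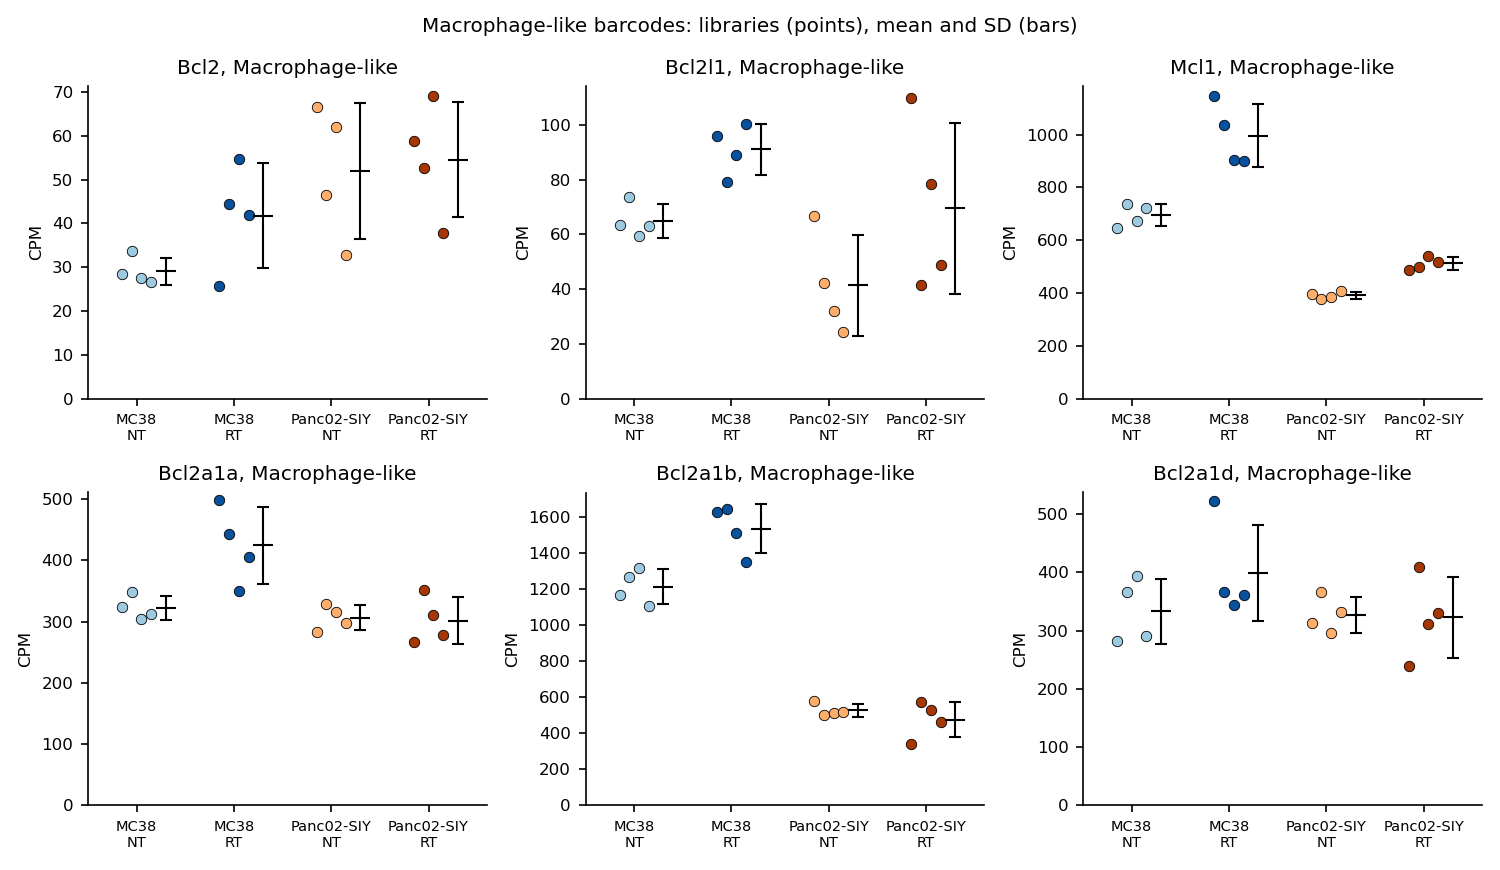
Levels of the 6 anti-apoptotic members in macrophage-like barcodes (CPM, linear axis from 0), with 1 point per library in the 4 groups and a bar at the mean ± SD. The 4 irradiated MC38 libraries sit between 899 and 1146 CPM of Mcl1 and the 4 untreated ones between 648 and 738 CPM.

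The remaining members in MC38 macrophages did not pass the test. Bcl2a1d was 333 ± 55.5 CPM untreated and 399 ± 83.4 CPM irradiated (log2 fold change 0.36, adjusted p = 0.133) and Bcl2l11 was 76.6 ± 11.7 and 99.4 ± 32.3 CPM (0.42, adjusted p = 0.111). Bid (0.12, adjusted p = 0.830) and Bak1 (0.02, adjusted p = 0.981) were near 0. The macrophage calls depended on how barcodes in several libraries were treated: with every barcode kept, only Mcl1 was called (0.40, adjusted p = 0.00325), and Bcl2 (0.48, adjusted p = 0.169), Bcl2l1 (0.48, 0.186), Bcl2a1a (0.24, 0.207) and Bcl2a1b (0.27, 0.145) were not. Leaving out irradiated replicate 3 ended the call of Bcl2 (0.59, adjusted p = 0.111), and leaving out any one of untreated replicates 1, 3 and 4 or irradiated replicates 1, 3 and 4 ended that of Bcl2l1 (adjusted p between 0.107 and 0.166). Thinning to the lowest library total kept the call of Mcl1 and ended the other 4 (adjusted p between 0.111 and 0.342). The call of Bcl2a1b also ended with lineages from clusters, with library size alone as the scaling and without the 5% of barcodes with the most UMIs. It ended too with only barcodes holding at least 60% of their UMIs in the richest library. That of Bcl2l1 ended in DESeq2, with library size alone and without the richest 5%, and that of Bcl2 with lineages from clusters. T cell markers in these macrophages summed to 6.65 to 17.9 CPM untreated and 13.0 to 41.3 CPM irradiated over 6 genes, and NK cell markers to 5.77 to 17.3 and 16.7 to 25.7 CPM over 7 genes, and their part in the result was not tested. Monocyte markers were 967 to 1279 CPM untreated and 1325 to 1765 CPM irradiated over 6 genes, and their part was not tested either.

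No member was called by edgeR in the other MC38 lineages tested, where 2 of 9 in T cells had an unadjusted p below 0.05 against 10.5% of all genes, and 0 in NK cells and monocytes against 7.71% and 7.89%. DESeq2 called 5 members over the MC38 lineages, of which 4 were among the 5 above. In T cell-like barcodes the members' median log2 fold change was 0.31 against 0.03 for all genes. Mcl1 was 283, 339, 359.6 and 293 CPM in untreated replicates 1 to 4 and 519, 557 and 359.5 CPM in irradiated replicates 1, 3 and 4 (0.60, SE 0.16, adjusted p = 0.135). Irradiated replicate 4 was level with the highest untreated library. Bcl2a1a rested on 9 untreated and 37 irradiated UMIs (13.6 ± 8.12 and 41.3 ± 15.9 CPM, 1.78, adjusted p = 0.235). Bcl2 was 434 ± 180.0 and 515 ± 109 CPM (0.31, adjusted p = 0.747). In NK cell-like barcodes, Bcl2 (0.27, adjusted p = 0.834) and Bcl2l11 (0.33, adjusted p = 0.880) spread widely, and the members' median was -0.04. In monocyte-like barcodes, Mcl1 was 1158 ± 191 CPM untreated and 1330.0 ± 44.6 CPM irradiated (0.23, adjusted p = 0.708), and the median was 0.07. The number of MC38 T and NK barcodes limits these tests. Few genes of any kind were called in these lineages, 63 of 9884 in T cells, 10 of 7863 in NK cells and 6 of 6491 in monocytes. In MC38 macrophages 1310 of 9648 were called.

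In Panc02-SIY, all CD45+ barcodes together showed Bcl2, Bcl2l1, Mcl1 and Bcl2a1a higher after irradiation, 4 of 9 members against 7.69% of all genes. The members' median log2 fold change was 0.25 and that of all genes -0.03. Bcl2l1 was 36.8, 36.0, 33.2 and 28.3 CPM untreated and 57.8, 47.9, 57.1 and 45.6 CPM irradiated (0.56, SE 0.10, adjusted p = 0.0017), and after thinning to the lowest library total the adjusted p was 0.105. Mcl1 was 467, 392, 391 and 343 CPM untreated and 646, 588, 649 and 511 CPM irradiated (0.51, SE 0.10, adjusted p = 0.0033). Neither gene's groups overlapped, nor did those of Bcl2 and Bcl2l11, which makes 4 of 9 members against 17.4% of all genes. Bcl2 was 301 ± 57.6 and 439 ± 58.1 CPM (0.47, adjusted p = 0.0647), a call that ended without untreated replicate 2, untreated replicate 4 or irradiated replicate 1 (adjusted p between 0.119 and 0.153). Bcl2a1a was 76.2 ± 19.2 and 107 ± 9.94 CPM (0.40, adjusted p = 0.0800), a call that ended without untreated replicate 1 (0.32) or irradiated replicate 3 (adjusted p = 0.118). The sum of the A1 genes was not called (-0.03, edgeR adjusted p = 0.919). NK cell-like barcodes, the lineage highest in Bcl2, were a median of 7.78% of barcodes untreated and 14.7% irradiated, neutrophil-like barcodes, highest in Mcl1, 6.40% and 12.5%, and monocyte-like barcodes 1.02% and 5.01%. The part of these shares in the result was not tested.

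**Figure D3:**
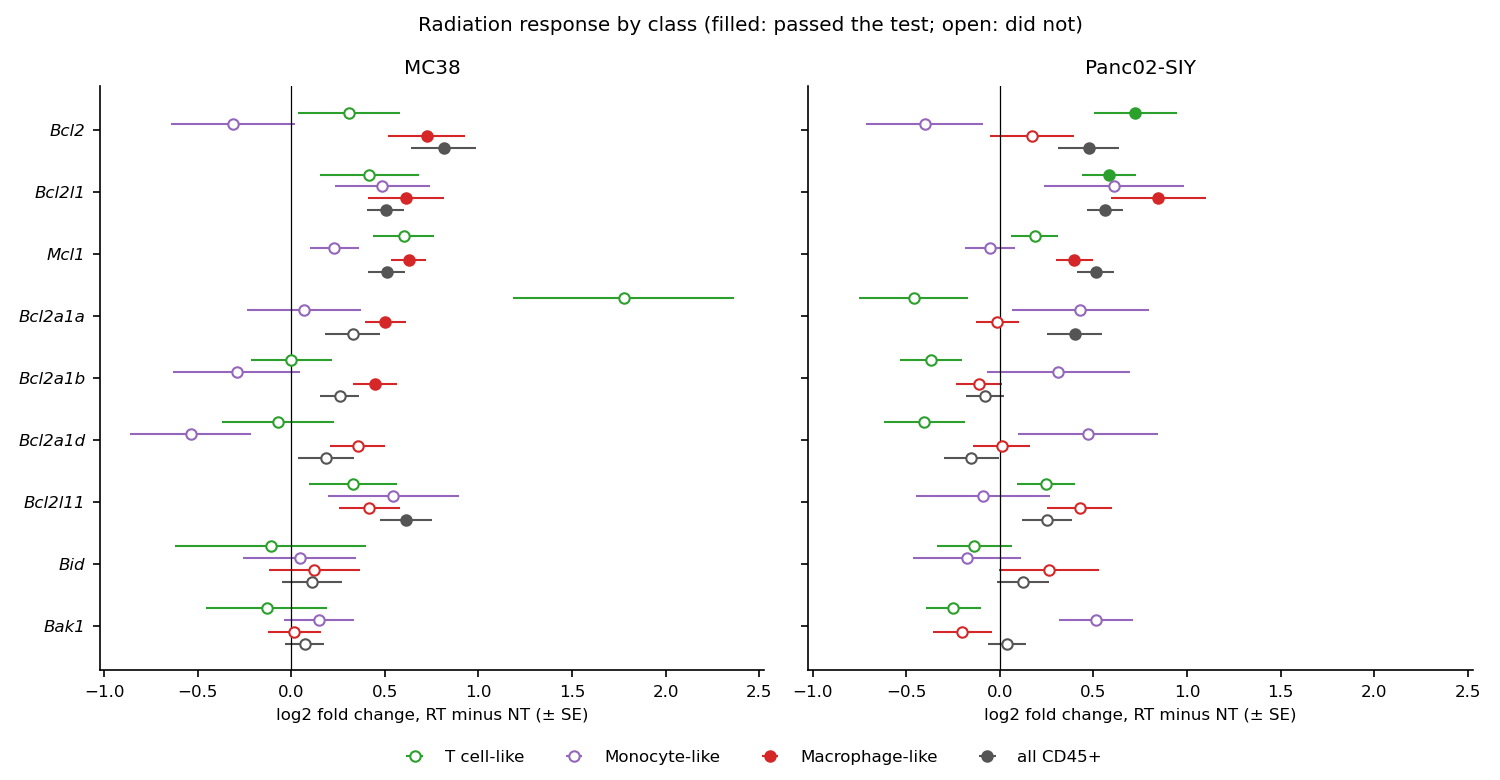
Log2 fold change of irradiated minus untreated libraries (± SE) for the 9 members in T cell-like, monocyte-like, macrophage-like and all CD45+ barcodes of MC38 (left) and Panc02-SIY (right), filled where the test was passed. In macrophages, 5 members were called in MC38 and 2 in Panc02-SIY, and in T cells 2 were called in Panc02-SIY.

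Over the lineages of Panc02-SIY, 4 of 51 member-by-lineage tests were called against 2.6% of all genes. They were Bcl2 and Bcl2l1 in T cells, and Bcl2l1 and Mcl1 in macrophages, all higher after irradiation. All 4 calls were of anti-apoptotic genes, which are most of the members, and no death-promoting member was called. Outside the member list, the death-promoting genes Bax and Bbc3 rose in T cells and Bax and Pmaip1 in macrophages (values below). The calls therefore do not show a change in survival genes alone.

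In T cell-like barcodes, 2 of 9 members rose against 2.21% of 9884 genes, with a median over members of -0.14 against 0.02 for all genes. Bcl2 was 363, 361, 375 and 365 CPM untreated and 721, 529, 588 and 731 CPM irradiated. The untreated libraries lay close together while the irradiated ones spread widely above them (0.72, SE 0.22, adjusted p = 0.0896). Bcl2l1 was 34.5, 32.9, 34.2 and 29.0 CPM untreated and 55.5, 50.2, 56.7 and 45.8 CPM irradiated (0.58, SE 0.14, adjusted p = 0.0267). The 2 genes that rose were also the only 2 of 9 members whose groups did not overlap, against 16.2% of all genes. The A1 genes were on the other side of 0 without passing the test: Bcl2a1b was 290.0 ± 19.6 CPM untreated and 237 ± 50.4 CPM irradiated (-0.37, adjusted p = 0.249), Bcl2a1d had a log2 fold change of -0.40 (adjusted p = 0.354), and the A1 sum one of -0.39 (adjusted p = 0.260). Mcl1 was 277 ± 27.9 and 334 ± 26.8 CPM (0.19, adjusted p = 0.483) and Bcl2l11 201 ± 20.4 and 251 ± 60.8 CPM (0.25, adjusted p = 0.434).

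With the libraries thinned to the lowest library total, neither call was kept (0.59, adjusted p = 0.310 for Bcl2 and 0.07, adjusted p = 0.970 for Bcl2l1). The call of Bcl2 in T cells also ended without any one of the 8 Panc02-SIY libraries or untreated MC38 replicate 4 (adjusted p between 0.111 and 0.215, log2 fold change between 0.66 and 0.81), while with every barcode kept Bcl2 was still called (adjusted p = 0.0191), as was Bcl2l1 (adjusted p = 0.0104). Within the CD8 T cell-like subset, Bcl2 was 352, 353, 371 and 356 CPM untreated and 709, 495, 584 and 732 CPM irradiated (0.72, SE 0.13, adjusted p = 0.0050). There Bcl2l1 rose from 30.1 ± 2.61 to 47.7 ± 5.05 CPM (0.56, adjusted p = 0.0206), and 2 of 9 members were called against 1.89% of 10801 genes. In CD4 T cell-like barcodes Bcl2 was 496 ± 52.5 and 582 ± 149 CPM (0.19, adjusted p = 0.781). Regulatory T cell-like barcodes held 101 ± 64.7 and 67.1 ± 29.4 CPM of Bcl2 (-0.45, adjusted p = 0.799) and 59.8 ± 29.8 and 106 ± 21.3 CPM of Bcl2l1 (0.77, adjusted p = 0.416). After thinning to 2000 UMIs, which left out 125 of 3770 untreated and 88 of 2930 irradiated T cell-like barcodes as shallower, a Bcl2 UMI was found in 47.2% and 59.7% (77.6% and 78.8% unthinned, at medians of 8259 and 6109 UMIs). NK cell markers in these T cells summed to 1442 to 2682 CPM untreated and 493 to 2573 CPM irradiated over 7 genes, which overlap, and macrophage markers to 172 to 430.0 and 155 to 224 CPM over 8 genes.

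**Figure D4:**
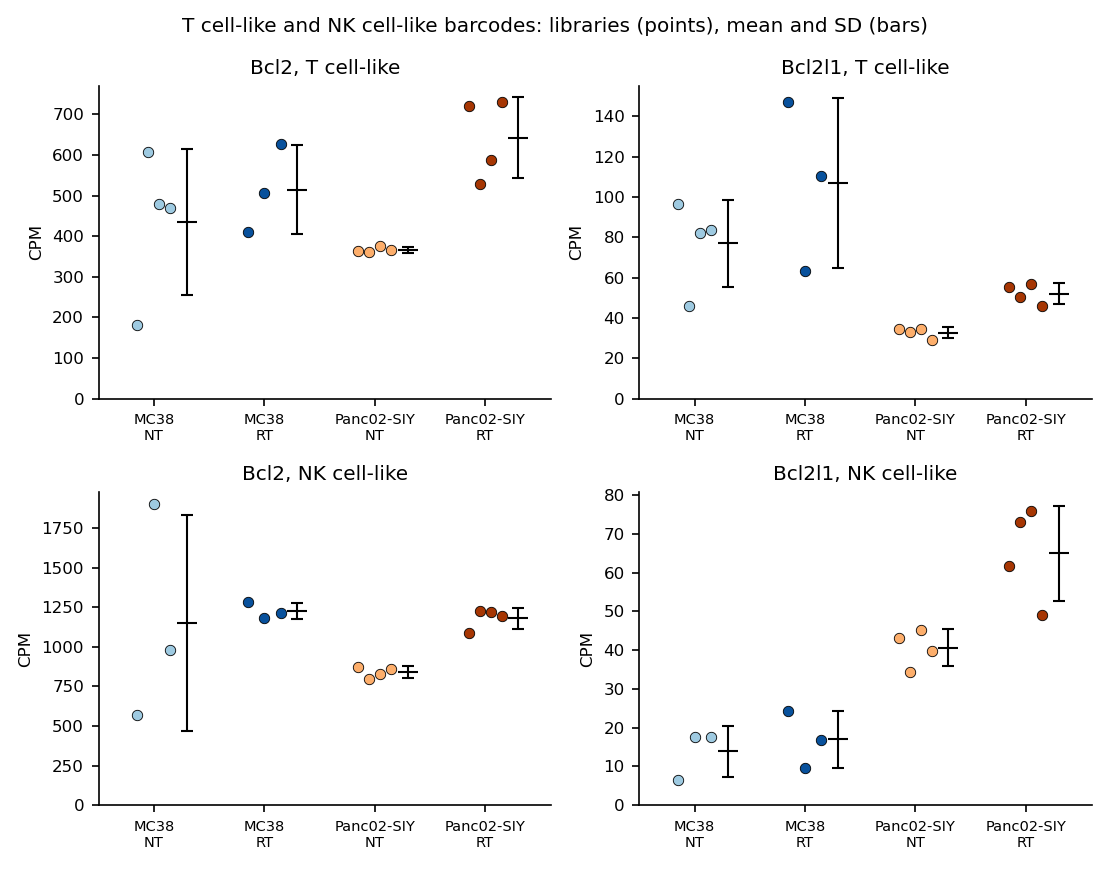
Bcl2 and Bcl2l1 in T cell-like and NK cell-like barcodes (CPM, linear axis from 0), with 1 point per library holding at least 10 barcodes and a bar at the mean ± SD. The irradiated Panc02-SIY libraries lie above the untreated ones in all 4 panels, and MC38 NK libraries lie below all Panc02-SIY ones for Bcl2l1.

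In Panc02-SIY macrophages, 2 of 9 members rose against 2.33% of all genes, with a median of 0.17 against 0.02. Mcl1 was 395, 377, 386 and 408 CPM untreated and 487, 499.9, 542 and 519 CPM irradiated (0.40, SE 0.10, adjusted p = 0.0270), the only member of 9 without overlap, against 7.27% of all genes. Bcl2l1 was 66.7, 42.4, 31.9 and 24.3 CPM untreated and 109.9, 41.4, 78.4 and 48.8 CPM irradiated, which overlap (0.85, SE 0.25, adjusted p = 0.0722). Its call ended without untreated MC38 replicate 4, untreated Panc02-SIY replicate 3 or 4, or irradiated Panc02-SIY replicate 3 (adjusted p between 0.101 and 0.327). Thinning to the lowest library total ended both calls (adjusted p = 0.116 for Mcl1 and 0.300 for Bcl2l1). Both also ended with only the groups compared in the fit. The call of Mcl1 ended too with no filter on low counts, and that of Bcl2l1 without the 5% of barcodes with the most UMIs. The A1 genes did not move in this lineage beyond the spread: Bcl2a1b was 526 ± 36.2 and 474 ± 99.2 CPM (-0.11, adjusted p = 0.705), and Bcl2a1a (-0.01) and Bcl2a1d (0.01) were near 0. Their sum was at -0.06 (edgeR adjusted p = 0.861). Bcl2l11 was 99.1 ± 18.6 and 128 ± 10.1 CPM (0.43, adjusted p = 0.186), and with every barcode kept it was called (0.46, adjusted p = 0.0464). T cell markers in these macrophages summed to 168 to 318 CPM untreated and 76.6 to 224 CPM irradiated, and their part in the result was not tested.

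NK cell-like barcodes of Panc02-SIY had no call by edgeR, although 4 of 8 members had an unadjusted p below 0.05 against 9.45% of 7863 genes, and 3 of 8 had groups that did not overlap against 8.1%. Bcl2 was 874, 796, 829.7 and 864 CPM untreated and 1086, 1226, 1221 and 1193 CPM irradiated (0.43, adjusted p = 0.392), and Bcl2l1 40.6 ± 4.75 and 65.0 ± 12.2 CPM (0.60, adjusted p = 0.209). Bcl2a1d was 40.8 ± 21.0 and 16.9 ± 4.29 CPM (-1.25, adjusted p = 0.460). In neutrophils, Mcl1 was 2755 ± 169 and 2847 ± 186 CPM (0.04, adjusted p = 0.963) and the members' median was 0.07. In monocytes, Bak1 was 95.7 ± 31.5 and 134 ± 20.6 CPM (0.51, adjusted p = 0.341) and the median was 0.31. In cDC-like barcodes, Bcl2 was 11.1, 8.06, 15.1 and 21.3 CPM untreated and 50.6, 37.3, 110.0 and 36.2 CPM irradiated, without overlap, as for 4.77% of all genes (1.88, SE 0.42, adjusted p = 0.198), and the median over members was 0.34.

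The difference between the 2 radiation responses was tested for each member as an interaction in edgeR. No member was called in any lineage tested or in all CD45+ barcodes, where 0.0236% and 0.345% of all genes were. At an unadjusted p below 0.05 there were 3 of 35 member-by-lineage tests against 6.16% of all genes, and 1 of 9 members in all CD45+ barcodes against 11.8%, shares near the background, and DESeq2 called none. The 3 were Bcl2a1a (0.52, SE 0.16) and Bcl2a1b (0.56, SE 0.17) in macrophages and Bcl2a1a in T cells (2.24, SE 0.66, on few UMIs). Their adjusted p in edgeR was 0.532, 0.523 and 0.706. The A1 sum in macrophages differed by 0.51 (adjusted p = 0.540), Mcl1 by 0.23 (adjusted p = 0.891) and Bcl2l1 by -0.24 (adjusted p = 1.0). The calls in one tumor and not in the other are therefore not shown to differ between tumors.

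The tumors were compared under each condition. Their libraries also differed in barcode sharing (1239 of 2632 distinct barcodes in MC38 and 187 of 18136 in Panc02-SIY) and in depth. By this design, such properties of the libraries cannot be told apart from the tumor. In untreated tumors, 10 of 35 member-by-lineage tests were called against 25.4% of all genes, a share near the background. In irradiated tumors it was 16 of 35 against 28.3%. Most of the calls were anti-apoptotic genes that were higher in MC38, in a list where most members are anti-apoptotic. In all CD45+ barcodes, Bcl2l1, Mcl1, the 3 A1 genes and Bak1 were higher in MC38 under both conditions, 6 of 9 against 29.1% of genes untreated and 29.9% irradiated, and Bcl2 and Bcl2l11 were lower, 2 of 9 against 32% and 28.6%. Untreated, the log2 differences were 2.12 for Bcl2a1a, 2.02 for Bcl2a1b, 1.15 for Mcl1 and -1.82 for Bcl2. The sum of the A1 genes differed by 1.78 untreated and 2.06 irradiated. Groups did not overlap for 8 of 9 members untreated and 7 of 9 irradiated, against 58.2% and 54.7% of all genes. Both calls of Bak1 ended with library size alone as the scaling, which moved the irradiated median of all genes from 0.00 to -0.37. The irradiated call of Bcl2l11 ended without irradiated MC38 replicate 2 or 4. It ended too with only barcodes holding at least 60% of their UMIs in the richest library. T cell-like barcodes were a median of 40% of untreated Panc02-SIY and 5.89% of untreated MC38 barcodes, and macrophages 11.9% and 37.3%, and their part in these differences was not tested.

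**Figure D5:**
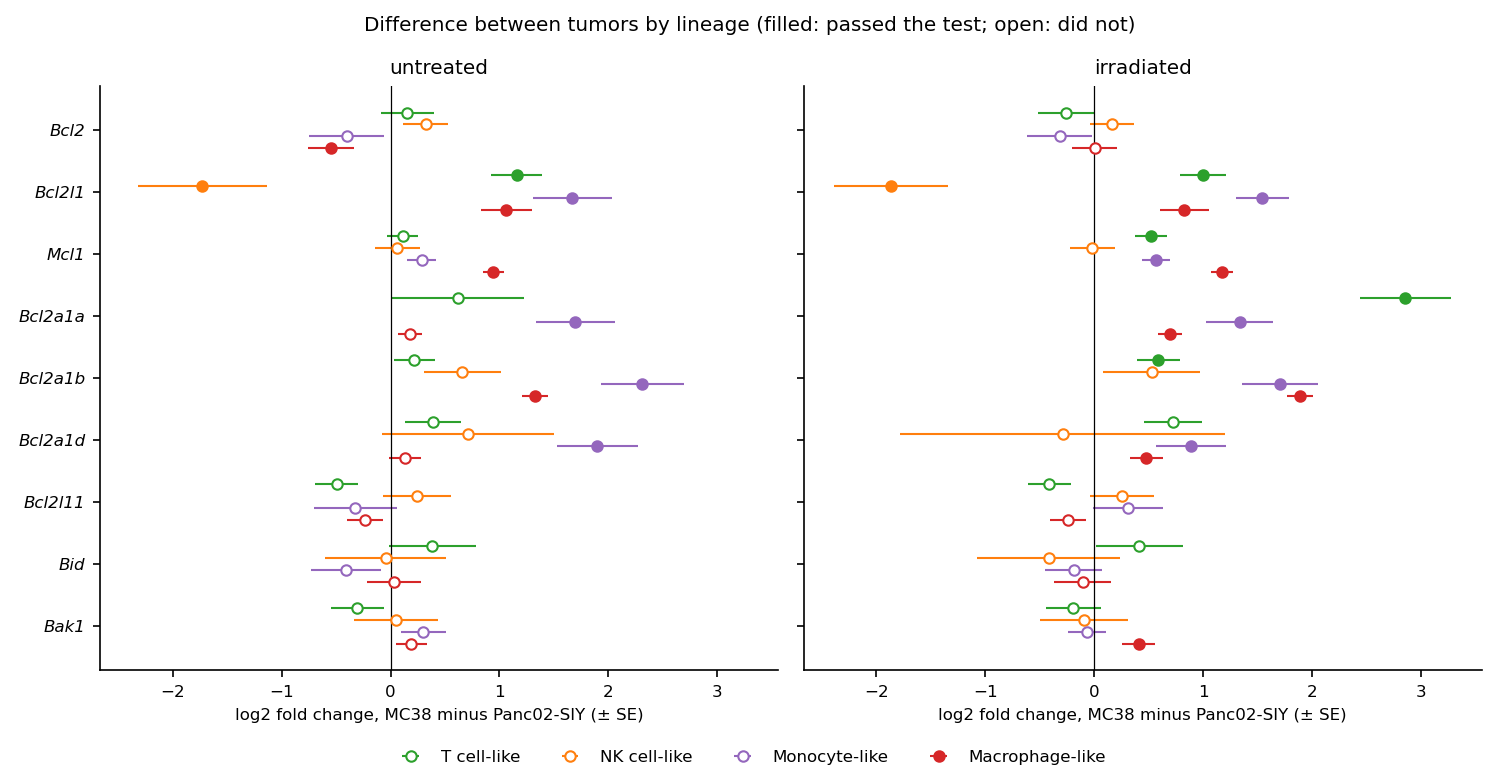
Log2 fold change of MC38 minus Panc02-SIY (± SE) for the 9 members in T cell-like, NK cell-like, monocyte-like and macrophage-like barcodes, untreated (left) and irradiated (right), filled where the test was passed. Bcl2a1b stood apart in macrophages by 1.33 untreated and 1.89 irradiated.

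In macrophages, Bcl2l1, Mcl1 and Bcl2a1b were higher in untreated MC38, 3 of 9 members against 23.6% of genes. Mcl1 was 695 ± 41.5 CPM in MC38 and 392 ± 13.3 CPM in Panc02-SIY (0.94, SE 0.10, adjusted p = 3.36e-08), and Bcl2a1b 1213 ± 97.5 and 526 ± 36.2 CPM (1.33, SE 0.12, adjusted p = 3.4e-09). Their groups lay wholly apart, and both calls were kept under every alternative run. The A1 sum differed by less than Bcl2a1b alone (0.80, SE 0.11, edgeR adjusted p = 3.09e-06). Bcl2l1 was 64.9 ± 6.19 and 41.3 ± 18.5 CPM (1.06, adjusted p = 0.0011), a call that ended after thinning to the lowest library total (0.57, adjusted p = 0.261). Bcl2 was lower in MC38 (29.1 ± 3.13 and 52.0 ± 15.4 CPM, -0.55, adjusted p = 0.0396), 1 of 9 members against 22.5% of genes, and this call ended without untreated Panc02-SIY replicate 3 (-0.42, adjusted p = 0.130) and without the 5% of barcodes with the most UMIs (-0.07, adjusted p = 0.827). Groups did not overlap for 2 of 9 members in either condition, a share below the 35.3% of all genes untreated and 34% irradiated.

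After irradiation, 6 of 9 members were higher in MC38 macrophages against 24.5% of genes. Mcl1 was 997 ± 119 and 512 ± 23.9 CPM (1.17, adjusted p = 9.3e-10), and Bcl2a1b 1532 ± 136 and 474 ± 99.2 CPM (1.89, SE 0.12, adjusted p = 1.17e-11). The A1 sum differed by 1.31 (SE 0.11, edgeR adjusted p = 1.89e-09). Bcl2a1a was 425 ± 63.1 and 302 ± 38.1 CPM (0.69, adjusted p = 2.47e-05) and Bcl2l1 91.1 ± 9.28 and 69.6 ± 31.2 CPM (0.83, adjusted p = 0.0060), and thinning to the lowest library total ended the call of Bcl2l1 here too (0.35, adjusted p = 0.421). Bcl2a1d (0.48, adjusted p = 0.0125) lost its call without irradiated replicate 1 of either tumor (0.35 in both) and turned to -0.017 (adjusted p = 0.934) with every barcode kept. Bak1 (0.41, adjusted p = 0.0333) lost its call without any one of 10 libraries (0.33 to 0.38). Scaling by library size alone moved the median of all genes in this comparison from 0.00 to -0.22, so the smaller differences are relative to the TMM scaling. Of MC38 macrophage-like barcodes, 62.0% untreated and 61.9% irradiated lay in a cluster led by Chil3, Spp1, Ly6c2, Lyz2, Arg1 and Ccl2, while 56.2% and 45.3% of those of Panc02-SIY lay in one led by Mmp12, Slc40a1, Mmp13, Retnla, Ccl24 and Ccl8. The macrophages compared therefore came mostly from different clusters, and their median UMI count was 26359 in untreated MC38 and 2936.5 in untreated Panc02-SIY barcodes.

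Monocyte-like barcodes also differed between the tumors. Bcl2l1 and the 3 A1 genes were higher in untreated MC38, 4 of 9 members against 17.8% of 6491 genes, and Mcl1 joined them in irradiated tumors, 5 of 9 against 21.6%. Bcl2a1b was 789, 1025, 632 and 883 CPM in untreated MC38 and 151, 52.0, 259 and 223 CPM in untreated Panc02-SIY (2.31, SE 0.38, adjusted p = 6.03e-04). Irradiated, it was 491, 316, 907 and 886 CPM and 246, 196, 262 and 247 CPM (1.71, SE 0.35, adjusted p = 0.0021). Its groups lay apart in both conditions, with irradiated MC38 replicate 2 nearest to Panc02-SIY. Bcl2l1 was 48.4 ± 9.63 and 15.6 ± 11.1 CPM untreated (1.67, adjusted p = 0.0012) and 63.0 ± 11.4 and 25.6 ± 4.98 CPM irradiated (1.54, adjusted p = 2.79e-05). Mcl1 was 1330.0 ± 44.6 and 1050.0 ± 66.5 CPM irradiated (0.57, adjusted p = 0.0014). Bcl2a1d in irradiated tumors (0.89, adjusted p = 0.0452) lost its call without MC38 replicate 3, MC38 replicate 4 or Panc02-SIY replicate 2 (adjusted p between 0.107 and 0.151). Groups did not overlap for 4 of 9 members untreated and 3 of 9 irradiated, against 24.5% and 34.8% of all genes, and the A1 sum differed by 2.14 untreated (adjusted p = 6.2e-04) and 1.42 irradiated (adjusted p = 0.00486). Macrophage markers in monocyte-like barcodes summed to 3277 to 8235 CPM over the 8 MC38 libraries and to 1168 to 2246 CPM over the 8 of Panc02-SIY, with A1 higher in macrophages than monocytes, and their part in the result was not tested. Of the MC38 monocyte-like barcodes, 68.9% untreated and 56.4% irradiated lay in the same Chil3-led cluster as most MC38 macrophages, while 86.7% and 91.9% of those of Panc02-SIY lay in another cluster. The monocytes compared therefore came mostly from different clusters, and only 6.08% and 7.11% of those of MC38 kept the name when lineages were taken from clusters.

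T cell-like barcodes of untreated MC38 were higher in Bcl2l1, 1 of 9 members against 4.92% of genes, with 96.2, 45.6, 82.0 and 83.6 CPM against 34.5, 32.9, 34.2 and 29.0 CPM in Panc02-SIY (1.16, SE 0.23, adjusted p = 0.0033). All MC38 libraries were above all Panc02-SIY ones, and the call ended after thinning to the lowest library total (0.81, adjusted p = 0.219). In irradiated tumors, Bcl2l1, Mcl1, Bcl2a1a and Bcl2a1b were higher, 4 of 9 against 7.54%. Bcl2a1a was 23.2, 53.3 and 47.2 CPM in the 3 MC38 libraries and 1.85, 5.38, 6.77 and 8.65 CPM in Panc02-SIY, on 37 and 142 UMIs (2.86, SE 0.42, adjusted p = 1.28e-04). The A1 sum differed by 0.71 (SE 0.20, edgeR adjusted p = 0.0285). Bcl2l1 (0.99, adjusted p = 0.0044) lost its call without irradiated MC38 replicate 4 (0.79, adjusted p = 0.107) and after thinning (1.01, adjusted p = 0.123), and Mcl1 (0.52, adjusted p = 0.0261) without irradiated MC38 replicate 3 (0.33, adjusted p = 0.304). Bcl2a1b (0.59, adjusted p = 0.0640) lost its call without irradiated MC38 replicate 3 or 4 or irradiated Panc02-SIY replicate 1 (adjusted p between 0.160 and 0.304). Macrophage markers in T cell-like barcodes, over 8 genes, summed to 571 to 1187 CPM untreated and 504 to 1250 CPM irradiated in MC38, against 172 to 430.0 and 155 to 224 CPM in Panc02-SIY, and their part in these differences was not tested. Of 79 untreated MC38 T cell-like barcodes, 39 were CD8 T cell-like and 13 regulatory, against 3063 and 116 of 3770 in Panc02-SIY. Irradiated, 50 of 115 were CD8 T cell-like against 2131 of 2930. Pooled over all libraries, Bcl2l1 was 36.1 CPM in CD8, 62.8 in CD4 and 88.1 in regulatory T cell-like barcodes. The part of this mix was not tested.

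NK cell-like barcodes ran the other way for Bcl2l1, the 1 member of 8 that was lower in MC38, against 4.68% of 7863 genes untreated and 5.56% irradiated. It was 6.36, 17.6 and 17.5 CPM in untreated MC38 and 43.3, 34.3, 45.1 and 39.9 CPM in untreated Panc02-SIY (-1.73, SE 0.59, adjusted p = 0.0753). Irradiated, it was 24.3, 9.64 and 16.9 CPM against 61.7, 73.1, 75.9 and 49.2 CPM (-1.86, SE 0.52, adjusted p = 0.0207). The groups lay apart in both conditions, but the MC38 side rested on 4 and 5 UMIs. The untreated call ended in DESeq2 (adjusted p = 0.185), with only the groups compared in the fit (adjusted p = 0.110), and without MC38 replicate 1 (-1.27, adjusted p = 0.433), Panc02-SIY replicate 1 (adjusted p = 0.105) or Panc02-SIY replicate 3 (adjusted p = 0.122), and the irradiated one without MC38 replicate 3 (adjusted p = 0.110) or 4 (adjusted p = 0.101). Bcl2 in NK cells did not differ beyond the spread (0.32, adjusted p = 0.395 untreated, 0.17, adjusted p = 0.701 irradiated). Of MC38 NK cell-like barcodes, 60.9% untreated and 59.3% irradiated kept the name when lineages were taken from clusters. In Panc02-SIY the shares were 95.9% and 97.8%, and the part of this gap in the result was not tested.

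Other apoptosis genes of the same pathway, from lists that share Bax, Bbc3, Pmaip1, Fas, Tnfrsf10b and Birc3 between them, were tested in the same fits. The shares of all genes called higher after irradiation in MC38 and Panc02-SIY were 6.79% and 2.33% in macrophages, 0.486% and 2.21% in T cells, 0.127% and 0.178% in NK cells and 0.0924% and 0.447% in monocytes. Of 17 other BCL2 family genes, 3 of 11 tested rose in MC38 macrophages and 4 of 11 in Panc02-SIY macrophages, none fell, and the medians were 0.40 and 0.25. In T cells 1 of 9 tested rose in MC38 and 3 of 9 in Panc02-SIY, in NK cells Bax alone rose in each tumor (1.47 and 0.86), and in monocytes none of 6 was called. Bax, the pore-forming partner of Bak1, rose from 220.0 ± 18.9 to 532 ± 82.0 CPM in MC38 macrophages (1.39, adjusted p = 3.78e-08) and from 174 ± 18.8 to 286 ± 23.6 CPM in Panc02-SIY macrophages (0.75, adjusted p = 0.0022). In T cells Bax rose from 137 ± 41.5 to 409.6 ± 22.9 CPM in MC38 (1.60, adjusted p = 1.04e-04) and from 118 ± 9.44 to 314 ± 21.0 CPM in Panc02-SIY (1.33, adjusted p = 1.27e-06). Bbc3, which encodes the BH3-only protein PUMA, rose from 16.1 ± 4.94 to 55.1 ± 11 CPM in MC38 macrophages (1.91, adjusted p = 1.32e-06) and from 2.46 ± 0.74 to 28.1 ± 9.35 CPM in Panc02-SIY T cells (3.48, adjusted p = 7.87e-09). Pmaip1, which encodes NOXA, an MCL1 and A1 antagonist, rose in both macrophage populations (0.85, adjusted p = 0.00456 in MC38 and 0.97, adjusted p = 0.0171 in Panc02-SIY). Bak1, a member with Bax's role, was at 0.02 in MC38 and -0.20 in Panc02-SIY macrophages and not called.

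Of 23 p53 targets, 15 of 20 tested rose in MC38 macrophages (median 1.32), 13 of 20 in Panc02-SIY macrophages (1.01), 6 of 22 in MC38 T cells (1.16) and 14 of 22 in Panc02-SIY T cells (1.24). The largest in MC38 macrophages were Phlda3 (94.8 against 5.71 CPM, 4.24), Trp53inp1 (3.16), Zmat3 (2.61) and Ccng1 (2.52). In Panc02-SIY T cells they were Phlda3 (5.10), Bbc3, Cdkn1a (3.46) and Ccng1 (2.21). The list holds no member. In monocytes, 2 of 13 targets rose in MC38 and 1 of 13 in Panc02-SIY, and NK cells had 3 of 17 and 4 of 17.

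NF-kB targets, the group that A1 is known for, had 4 of 18 listed genes higher in irradiated MC38 macrophages (median 0.25), led by Il1b (2973 against 1565 CPM, 1.03) and Icam1 (0.66). In Panc02-SIY macrophages 3 were higher (median 0.23), led by Il1b (0.68) and Birc3 (0.59). T cells had 1 in each tumor, Icam1 in MC38 (1.73) and Nfkb1 in Panc02-SIY (0.39). Of 14 genes of death receptors and their inhibitors, 4 of 13 tested rose in MC38 macrophages, led by the receptor Fas (28.3 against 11 CPM, 1.3), and 1 in Panc02-SIY macrophages, while Panc02-SIY T cells had 2 higher, Tnfrsf10b (1.96) and Fas (1.22), and 1 lower, Tradd (-0.56). Of 14 caspase and apoptosome genes, Apaf1 rose in MC38 macrophages (33.2 against 23.2 CPM, 0.62) and in Panc02-SIY T cells (81.9 against 45.1 CPM, 0.77). Birc5, which encodes the mitotic protein survivin, fell in macrophages of MC38 (16.3 against 88.4 CPM, -2.35) and Panc02-SIY (29.4 against 104 CPM, -1.48). Of 13 survival cytokine receptors, 4 of 10 tested rose in MC38 macrophages, among them Il4ra (0.55) and Csf2rb (0.47), 2 rose in Panc02-SIY macrophages (Il4ra, 0.51, and Csf2rb, 0.50), and Il4ra rose in Panc02-SIY T cells (0.75).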

How the data were processed

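The authors deposited filtered matrices of raw UMI counts per gene and barcode for 16 droplet libraries (3′ version 3 chemistry), and the submitters' processing notes name Cell Ranger 3.1.0, bcl2fastq 2.20.0 and the mm10 build. No normalization had been applied, and no doublet removal is given in the sources used here, so no doublets were removed except where the richest 5% of barcodes were left out as an alternative. Groups came from the labels. Members and gene lists were chosen with earlier results of these data known. Barcodes found in several libraries of a tumor were kept only in the richest. A lineage needed 3 of its markers with a UMI and a margin of 1.5 over every other lineage's score, and libraries with at least 10 barcodes of a lineage entered. UMI counts were summed per library and lineage, and lineages with at least 3 such libraries in each group compared were tested with edgeR 4.0.16 (TMM, filterByExpr at a minimum count of 10, robust quasi-likelihood F test, 1 coefficient per group, R 4.3.3), with Benjamini-Hochberg adjustment over all genes tested in that lineage. A call needed an adjusted p below 0.1 and a fold above 1.3, the limits the study's methods use. Fold changes carry the TMM scaling and can differ from ratios of CPM. In all CD45+ barcodes 12447 genes passed the filter. Members passing it were 9 in T cells, monocytes and macrophages and 8 in NK cells (without Bcl2a1a), neutrophils (without Bcl2) and cDCs (without Bid).

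Levels across lineages were compared with exact paired permutation tests over all sign flips, computed in numpy 2.4.6, with a pseudocount of 10. Named genes were all members in each lineage, the 4 called genes of each list with the largest change per comparison, and the 3 genes most like each member. Alternatives covered barcode sharing, gating (clusters from scanpy 1.11.5 at 29 clusters, a margin of 2.5), cell filters, scaling, DESeq2 1.42.0, depth, thresholds, the replicate block and each library left out. Tested on simulated data, the MC38 macrophage step recovered 74% of 2-fold changes over 9431 genes and the Panc02-SIY T cell step 87% over 9625. The MC38 T cell step recovered 23% over 9575 and the MC38 NK cell step 13% over 7580. False calls were 18 of 188, 18 of 203, 8 of 87 and 5 of 73 in that order. The members' called radiation responses within lineages were all below 2-fold, so these shares do not give the recovery at their size. UMI counts and the p-values made from them cover counting error and the spread between libraries only.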

Additional observations from a re-analysis of the deposited data

Results flagged for a closer look

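Of 82 groups of 4 libraries checked for a member and lineage, 4 held a library far from the other 3, and chance gives about 1 in 20. In irradiated MC38 monocyte-like barcodes, replicate 2 stood at 110.1 CPM of Bcl2a1a against 258 to 274 CPM in the others, and at 59.9 CPM of Bcl2a1d against 268 to 279 CPM. In irradiated Panc02-SIY monocyte-like barcodes, replicate 2 stood at 70.4 CPM of Bcl2a1a against 115 to 122 CPM. In irradiated MC38 macrophage-like barcodes, replicate 1 stood at 523 CPM of Bcl2a1d against 345 to 367 CPM. These libraries were kept in every test above. Among the listed pathway genes, 4 differed in radiation response between the tumors in all CD45+ barcodes by the edgeR interaction test, where 0.345% of 12447 genes did. No listed gene was called for this difference within a lineage. The rises of the p53 targets Zmat3 (a difference of 1.12 on the log2 scale) and Mdm2 (0.94) were larger in MC38, and the values for Cdkn1a (-0.96) and Csf2rb (-0.84) were larger in Panc02-SIY. T cell-like barcodes were a median of 40% of untreated Panc02-SIY and 5.89% of untreated MC38 barcodes. The part of such shares in these 4 differences was not tested.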

How the results depend on the processing

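The number of members called over the lineages moved with the processing, and the cause was not tested. For irradiation in MC38 it was 5, and became 1 with every barcode kept, 3 without the 5% of barcodes with the most UMIs, 3 with library size alone as the scaling, 1 after thinning to the lowest library total, 3 with a log2 limit of 0.58 and 3 to 6 with 1 library left out. For irradiation in Panc02-SIY it was 4, and became 8 with lineages from clusters, 7 with at least 20 barcodes and 2 without the richest 5%. It became 0 after thinning (40 tests against 51), 2 at an adjusted p below 0.05 and 2 to 5 with 1 library left out. Between untreated tumors it was 10, 5 after thinning and 8 to 11 with 1 library left out. It was 16 between irradiated tumors, and 10 with lineages from clusters or at least 20 barcodes (18 tests against 35). With 1 library left out, that number was 12 to 17. The difference of the responses stayed at 0 throughout. Of the neighboring lineages, 24 of 54 pairs differed, and 15 of 40 with at least 20 barcodes. With 1 library left out it was 13 (of 38) to 24 (of 54), and the number of pairs tested also fell in some of these. Bcl2a1d in macrophages between irradiated tumors changed sign with every barcode kept (-0.017). Over 59 results, 891 of 944 values with 1 library left out kept their direction and call and 53 lost the call. Libraries outside the groups compared were also left out and act only through the shared fit, so this share can overstate stability. Of 1031 other values 941 kept direction and call, 89 lost the call and 1 changed sign.

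Over all CD45+ barcodes, the correlations of the deviations of same-numbered libraries ran from -0.06 to 0.26 in MC38, with 1 of 4 over 0.1, and were 0.55, -0.19, 0.27 and 0.80 in Panc02-SIY, with 3 of 4 over 0.1. As not every pair was over 0.1, the numbers were not treated as pairing the libraries. With the replicate block the calls were 6 and 4 for irradiation, 9 and 15 between tumors and 0 for the difference, and the call of Bcl2l1 in NK cells between untreated tumors ended (adjusted p = 0.125). Library size alone moved the share of calls that were higher in irradiated MC38 macrophages from 50% to 25.6% and in irradiated MC38 over irradiated Panc02-SIY macrophages from 50.7% to 31.5%. Depth limits most the MC38 T and NK cells, where few barcodes stand behind each value, and Bid, where few UMIs do.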

Other observations

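The genes whose levels ran most like each member over 24 lineage-by-group means are given as a description (Pearson r on log2(CPM + 10), points that share libraries and lineages). Bcl2 ran with the lymphocyte gene Gimap5 (r = 0.960), Nlrc3 (0.967) and Pear1 (0.965), Mcl1 with Ptafr, the receptor for platelet-activating factor (0.959), B430306N03Rik (0.954) and the interferon-induced Oas2 (0.952), and Bcl2a1a with Basp1 (0.956), Atp6ap2 (0.949) and Creb5 (0.948). Bcl2a1b and Bcl2a1d were each other's nearest genes (0.935), with Bcl2a1a (0.892) and Rgs10 (0.879) next for Bcl2a1b, and Rgs10 (0.916) and Havcr2 (0.884) for Bcl2a1d. Bcl2l11 ran with Spry2 (0.895), Mctp2 (0.890) and the granzyme gene Gzma (0.886), a marker used to gate the NK cells. Bid ran with 1810058I24Rik (0.893), Adipor1 (0.880) and Midn (0.877), and Bak1 with Rac1 (0.918), Ifitm2 (0.904) and Znhit1 (0.901). Bcl2l1 had no near neighbor of that kind, with Nsmce2 (0.761), Arrb2 (0.742) and Vmp1 (0.739) its nearest among 6057 genes.

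Within clusters, pooled over libraries and with no test, the Chil3-led cluster of MC38 held 888 CPM of Mcl1 and 1267 CPM of Bcl2a1b over 1027 barcodes, and the Mmp12-led cluster of Panc02-SIY held 285 CPM of Mcl1 and 524 CPM of Bcl2a1b over 1963 barcodes. The 62 Panc02-SIY barcodes in the Chil3-led cluster held 1407 CPM of Mcl1 and 484 CPM of Bcl2a1b. Of these, 12 were untreated and 50 irradiated, against 550 and 477 of MC38 in that cluster. The Panc02-SIY barcodes of the Mmp12-led cluster were 1355 untreated and 608 irradiated. By markers, 53.9% of the Chil3-led and 65.8% of the Mmp12-led cluster were macrophage-like. The part of these mixes in the values was not tested.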
